A study of Macaca mulatta with 24 samples.

Results

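The 200 transcripts described here were abundant in fetal Rhesus macaque tissue and close to even in level across lung, liver and hippocampus, 200 of 45579 transcripts listed for the series. They were chosen by measured values. CPM values (a transcript's count divided by its library's total, times 1000000) were averaged over the 8 libraries of each tissue. A transcript was kept when the mean was at least 30 CPM in every tissue and the largest tissue mean was at most 1.5 times the smallest, and the 200 with the highest smallest mean were taken. Of the 45579 transcripts 43285 had a count in some library, 2511 reached 30 CPM in all 3 tissues, and 286 of these (11.4%) passed the limit of 1.5. The tissue levels are therefore given as a description, with no test, and tests were made only of treatment, within each tissue and as its interaction with tissue, which the choice did not use.

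The study asked how antenatal corticosteroids given by mouth compare with the clinical injection, and RNA was sequenced from the lung, liver and hippocampus of 8 fetuses, 24 libraries in all. In the clinical treatment the mothers of 4 fetuses (clinical fetuses 1 to 4, in the order of the animal numbers in the labels) were injected intramuscularly 2 times, 24 h apart, with betamethasone-phosphate and betamethasone-acetate at 0.25 mg/kg. For oral Beta-P the mothers of 4 fetuses (oral fetuses 1 to 4, in the same order) were given 3 doses of 0.15 mg/kg betamethasone-phosphate by mouth, 12 h apart. Delivery was at 5 days in both groups. All 8 fetuses were thus exposed to a corticosteroid, and no untreated fetus was sequenced in the libraries analysed here. Gestational age was 132 to 133 days in the clinical group and 127 to 132 days in the oral group. Totals were 21088272 to 28641485 counts per library in lung, 25803825 to 32122919 in liver and 22537044 to 35254898 in hippocampus.

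Antenatal betamethasone crosses the placenta and acts through the glucocorticoid receptor, a transcription factor present in nearly every cell type, and it is used to hasten maturation of the fetal lung. Transcripts found at like levels in unlike organs are usually thought of as products of housekeeping genes, which serve protein synthesis, energy supply, protein folding and the cytoskeleton. Such transcripts are the common choice of reference when expression is compared between samples. The Ensembl transcript identifiers of the tables could not be paired with gene names here, so whether these 200 belong to such genes is not known, and every transcript below is given by its identifier. For the same reason the tissue labels were not checked against marker genes.

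Each tissue held the 200 transcripts at closely similar shares of its RNA counts. The limit of 1.5 on the tissue means of each member also bounds these shares, so their likeness describes the choice. Their summed counts made up 1.90% to 1.97% of each lung library, 1.69% to 1.91% of each liver library and 1.85% to 1.92% of each hippocampus library. Within a single fetus the largest of the 3 tissue shares was between 1.06 times (oral fetus 3) and 1.13 times (clinical fetus 4) the smallest. Mean levels of single members ran from 39.1 to 729.9 CPM in lung with a median of 70.8, from 39.2 to 881 in liver with a median of 68.4, and from 38.9 to 784 in hippocampus with a median of 64.9. They were not the most abundant transcripts of any tissue, since the highest member ranked 105th in lung, 84th in liver and 81st in hippocampus. The 33 members at 100 CPM or more in each tissue included 7 at 200 or more. The counts behind a member's value were large, at no less than 486 in any lung library, 723.4 in any liver library and 853 in any hippocampus library. Transcript lengths were not used, so levels are compared between tissues for a transcript and not between transcripts. In whole tissue, fewer cells of a type and less RNA per cell cannot be told apart.

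Evenness was uncommon among abundant transcripts on the CPM scale. Over the 2511 transcripts at 30 CPM or more in all tissues, the largest tissue mean was 1.83 times the smallest at the lower quartile, 2.44 times at the median and 3.35 times at the upper quartile. The share within the limit of 1.5 was 11.7% (160 of 1365) for transcripts whose smallest mean was 30 to 50 CPM, 11.4% (93 of 816) at 50 to 100 CPM, 11.2% (26 of 233) at 100 to 200 CPM and 7.22% (7 of 97) above that. The share was thus much alike in the first 3 classes of level. Among the 200 members the ratio ran from 1.06 to 1.4996 with a median of 1.33, and 11 members had a ratio of at most 1.1, 42 of at most 1.2 and 90 of at most 1.3.

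**Figure D1:**
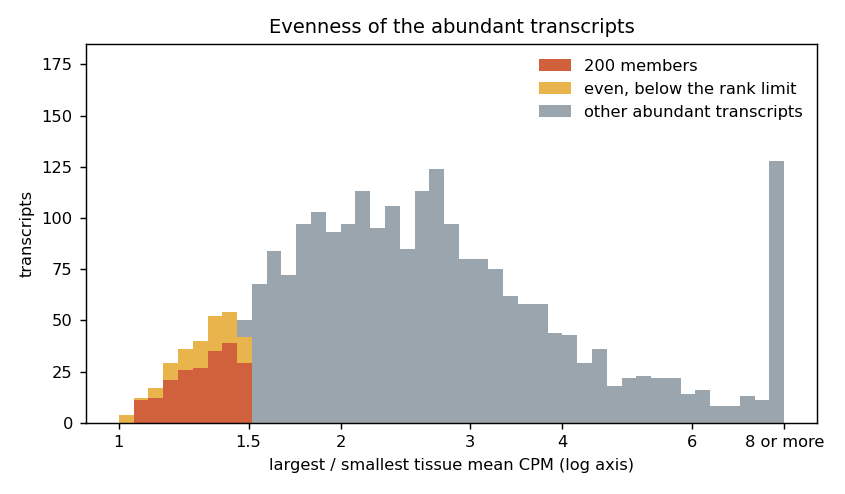
Histogram of the largest tissue mean over the smallest (log axis, unitless; values of 8 or more are in the last bar) for the 2511 transcripts averaging 30 CPM or more in lung, liver and hippocampus. The 200 members and the 86 even transcripts below the rank limit lie left of 1.5, in the lower tail of a distribution whose median is 2.44.

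The member with the highest level was ENSMMUT00000074678.1. It measured 617 to 786 CPM with a median of 739 over the 8 lung libraries, 587 to 859 CPM with a median of 711 in liver and 673 to 871 CPM with a median of 817 in hippocampus. The ranges of the 3 tissues overlapped, and the tissue means of 729.9 ± 56.7, 720.2 ± 99.8 and 784 ± 82.9 CPM (SD, n = 8) differed by less than the SD of liver or hippocampus. ENSMMUT00000007700.2 was highest in liver, at 693 to 1081 CPM with a median of 860.5, against 579.7 to 818 CPM with a median of 647 in lung and 712 to 944 CPM with a median of 747 in hippocampus. Its tissue ranges overlapped as well, with the livers of oral fetuses 3 and 4 above every lung and hippocampus library. ENSMMUT00000045385.2 was lower in liver than in either of the other tissues in every animal. It measured 395 to 568 CPM with a median of 498 in liver, 594 to 745 CPM with a median of 682 in lung and 651 to 801 CPM with a median of 719.5 in hippocampus, so that no liver library reached the lowest lung or hippocampus library. Thus a member could stand within the limit of 1.5 and still separate tissues without overlap.

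The next 5 members by level were lowest in liver, although to differing degrees. ENSMMUT00000017347.3 had tissue means of 495 ± 47.2 CPM in lung, 405 ± 73.01 in liver and 446 ± 15.8 in hippocampus (SD, n = 8). Its liver values spread from 291 to 536 CPM, around every hippocampus value, and the hippocampus values stayed between 425 and 479. ENSMMUT00000056123.1 averaged 328 ± 35.97, 273 ± 29.7 and 351 ± 25.2 CPM in the same order, and ENSMMUT00000010925.3 averaged 310.5 ± 15.9, 238 ± 21.2 and 245 ± 11.3 CPM. In ENSMMUT00000010925.3 the lowest lung library, at 281 CPM, was above the highest liver library, at 264 CPM, and the highest hippocampus library, at 261 CPM. ENSMMUT00000066034.1 averaged 280.3 ± 34.3, 206 ± 24.7 and 297 ± 15.997 CPM, and ENSMMUT00000004353.3 averaged 247 ± 22.4, 198 ± 26.4 and 202 ± 23.1 CPM (SD, n = 8). For ENSMMUT00000004353.3 the liver and hippocampus means differed by less than the SD of either.

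**Figure D2:**
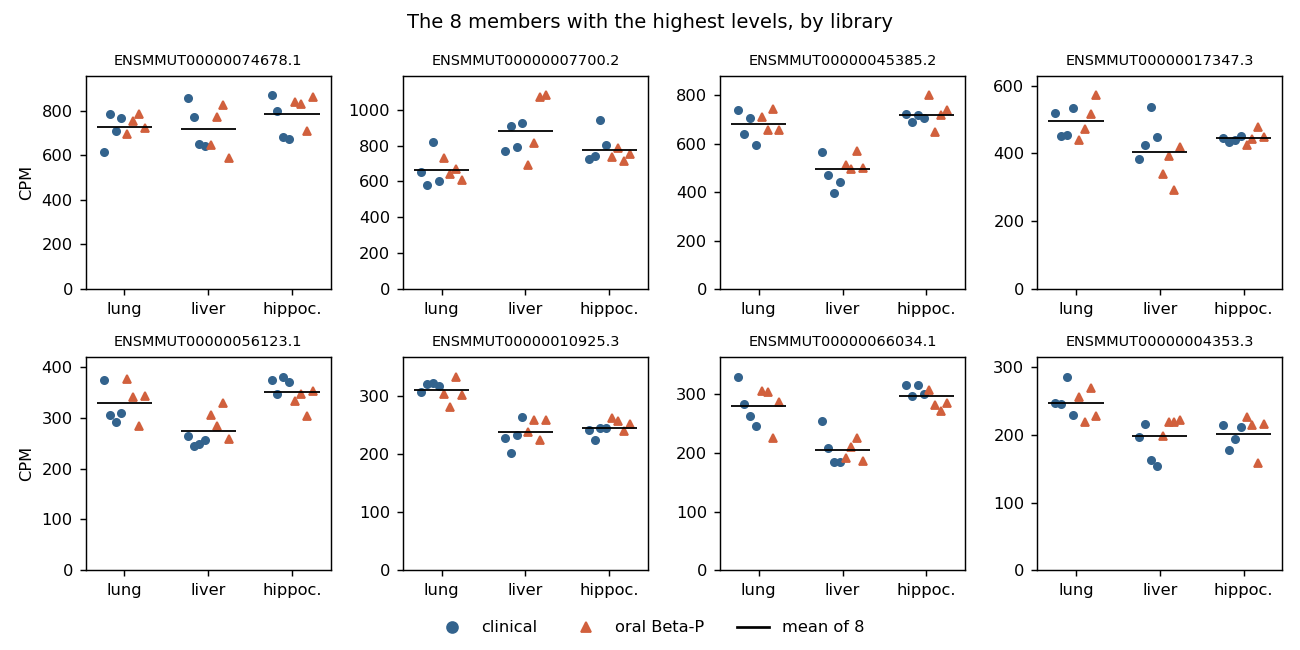
CPM (linear axis from 0) of the 8 members with the highest smallest tissue mean in each of the 24 libraries, by tissue; circles are clinical libraries, triangles oral Beta-P libraries, and the line is the mean of the 8 libraries of a tissue. Circles and triangles are mixed within most tissues, and ENSMMUT00000045385.2 lies lower in liver (395 to 568 CPM) than in lung (594 to 745 CPM).

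The most even member was ENSMMUT00000030357.3, with a ratio of 1.06. It measured 106 to 127 CPM with a median of 118 in lung, 103 to 135 CPM with a median of 119 in liver and 108 to 124 CPM with a median of 113 in hippocampus. All 3 ranges overlapped widely. ENSMMUT00000071237.1 (ratio 1.07) averaged 47.7 ± 5.12, 44.8 ± 7.14 and 47.6 ± 4.40 CPM in lung, liver and hippocampus, and ENSMMUT00000006373.3 (ratio 1.07) averaged 82.4 ± 10.7, 80.5 ± 7.25 and 76.7 ± 4.07 CPM (SD, n = 8). Oral fetus 2 gave the lowest value of ENSMMUT00000071237.1 in all 3 tissues, at 36.7 CPM in lung, 32.4 in liver and 37.8 in hippocampus.

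At the rank limit the last members were ENSMMUT00000023936.3, ENSMMUT00000017996.3 and ENSMMUT00000028516.3, with smallest tissue means of 39.2, 39.1 and 38.9 CPM. The first 3 left out, ENSMMUT00000070440.1, ENSMMUT00000068085.1 and ENSMMUT00000069769.1, had 38.8, 38.8 and 38.6 CPM. At the ratio limit ENSMMUT00000025180.3 (1.4997) and ENSMMUT00000076161.1 (1.498) were inside, and ENSMMUT00000066328.1 (1.501) and ENSMMUT00000062065.1 (1.502) were outside. These values differ too little to set members apart from the transcripts next to them. ENSMMUT00000066328.1, just outside, behaved unlike any member, since it was at 0.744 CPM or less in every tissue of clinical fetuses 2, 3 and 4 and at 39.8 to 139 CPM in all tissues of the other 5 fetuses. No member had a library below 0.1 of its tissue mean, while 12 of the other 2311 abundant transcripts (0.519%) did. In members the lowest library was at 0.472 times its tissue mean and the highest at 1.98 times.

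Below the limit of 1.5 the members still leaned toward single tissues. Of the 200, 88 were highest in lung, 61 in hippocampus and 51 in liver, and 87 were lowest in liver, 67 in hippocampus and 46 in lung. Over all 2511 abundant transcripts the lean was stronger, with 1523 highest in lung, 708 in hippocampus and 280 in liver. For 100 members the 8 libraries of each tissue overlapped with those of both other tissues. Lung libraries were all above liver libraries for 26 members and all below for 5, lung was above hippocampus for 43 and below for 24, and liver was above hippocampus for 13 and below for 28. The same tissue was highest in all 8 fetuses for 53 members (29 in lung, 18 in hippocampus and 6 in liver).

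In any single fetus most members were also within the limit, but a minority were so in every fetus. Each value within a fetus is a single library. Within single animals the largest tissue value exceeded 1.5 times the smallest for 41 members (clinical fetus 2) to 69 members (clinical fetus 4), and the median ratio was 1.35 to 1.38. Only 41 members stayed at or below 1.5 in every animal, and 52 exceeded it in 4 animals or more. The largest ratio in a single animal was 2.64.

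The evenness was a property of the CPM scale. In liver the 10 most abundant transcripts of a library took 24.4% to 31.3% of its counts, against 4.89% to 6.43% in lung and 9.21% to 12.4% in hippocampus, and CPM counts them in the total. Scaling by the trimmed mean of M-values (TMM), which assumes that most transcripts do not differ between libraries, gave factors of 1.29 to 1.36 in lung, 0.643 to 0.722 in liver and 1.102 to 1.17 in hippocampus. On that scale all 200 members were highest in liver, and 141 of them had every liver library above every lung and hippocampus library. Together the CPM limit of 1.5 and the factors put every member highest in liver, so this is not a separate result. The median level of the members was 53.5 in lung, 102 in liver and 57.5 in hippocampus, in TMM-scaled CPM. The median of the largest over the smallest tissue mean was 1.89, and 22 members stayed within 1.5. Over the 2511 abundant transcripts, which were not chosen by the limit of 1.5, 1066 (42.5%) were highest in liver on the TMM scale.

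**Figure D3:**
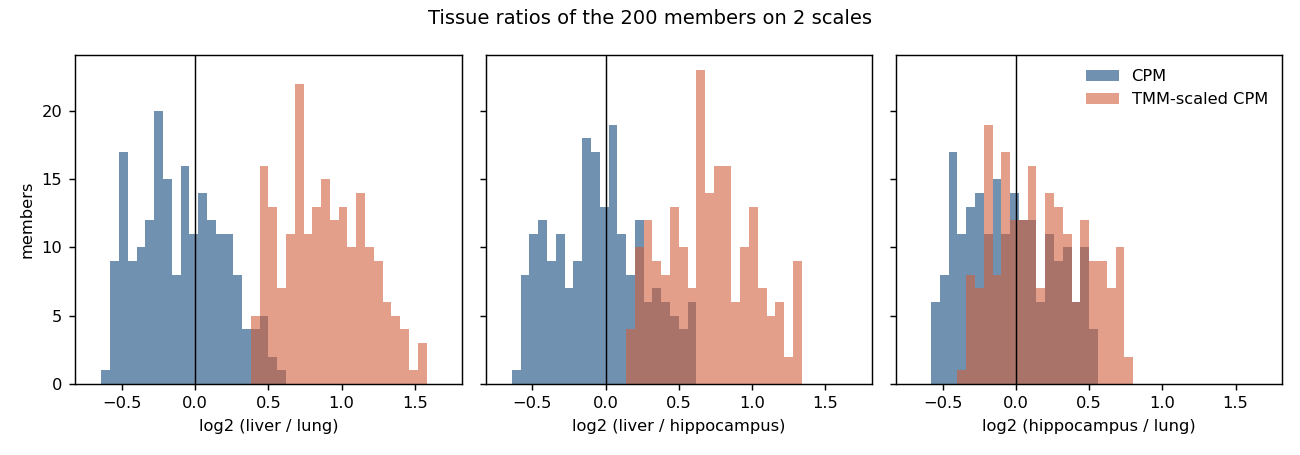
Histograms of the log2 ratio of tissue means of the 200 members for liver over lung, liver over hippocampus and hippocampus over lung, from plain CPM (blue) and TMM-scaled CPM (orange). The liver over lung ratios move from a median of -0.11 on the CPM scale to 0.87 on the TMM scale, and the hippocampus over lung ratios from -0.09 to 0.15.

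The order of tissues for single members turned with the scale. ENSMMUT00000074678.1 had TMM-scaled means of 551 in lung, 1074 in liver and 696 in hippocampus, and the most even member by CPM, ENSMMUT00000030357.3, had 88.9, 182 and 102. On the TMM scale 934 of the 3032 transcripts at 30 or more in all tissues were within the limit of 1.5, against 286 of 2511 by CPM. When the whole choice was repeated on the TMM scale, 9 of the 200 chosen were members, and the 2 with the highest levels were ENSMMUT00000045385.2 and ENSMMUT00000066034.1. ENSMMUT00000045385.2 had TMM-scaled means of 516 in lung, 738 in liver and 637 in hippocampus, and ENSMMUT00000066034.1 had 212, 307 and 263. Both were lowest in liver by CPM and highest there by TMM. The other 7 of these were ENSMMUT00000003832.3, ENSMMUT00000066386.1, ENSMMUT00000039940.2, ENSMMUT00000027965.3, ENSMMUT00000008677.3, ENSMMUT00000045553.2 and ENSMMUT00000026172.3, with TMM ratios of 1.38 to 1.46. When only the 10 most abundant transcripts of each library were left out of its total, 144 members stayed within 1.5 and 134 were highest in liver.

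The deposited liver table also differed in kind from the other 2. Liver values were estimated counts, while lung and hippocampus values were whole, so levels set across tissues may carry a difference in counting, and its part in them was not tested. In 38 members (19.0%) the liver values were whole in all 8 libraries, against 362 of the 2511 abundant transcripts (14.4%). The 38 were lowest in liver by CPM in 15 cases (39.5%) and the other 162 in 72 cases (44.4%). On the TMM scale, where the choice and the factors put every member highest in liver, the median ratios were 2.03 and 1.87.

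Levels of the members varied little between fetuses of a treatment. The SD of log2(CPM + 1) between animals, with the treatment means removed, had a median of 0.117 in lung, 0.167 in liver and 0.111 in hippocampus, the equivalent of 1.08-fold, 1.12-fold and 1.08-fold. Over all 2511 abundant transcripts the medians were 0.118, 0.186 and 0.117. The members differed mostly in the upper tail, where the 95th percentile was 0.217 against 0.303 in lung, 0.341 against 0.428 in liver and 0.188 against 0.271 in hippocampus. The libraries that gave these SDs also gave the means by which members were chosen, so the difference was not tested. The liver had the largest SD of the 3 tissues for 144 members. Counting error alone would give a median SD of 0.0356 in lung, 0.0327 in liver and 0.0329 in hippocampus, and the SD exceeded 2 times that expected from counting for 177, 197 and 180 members.

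**Figure D4:**
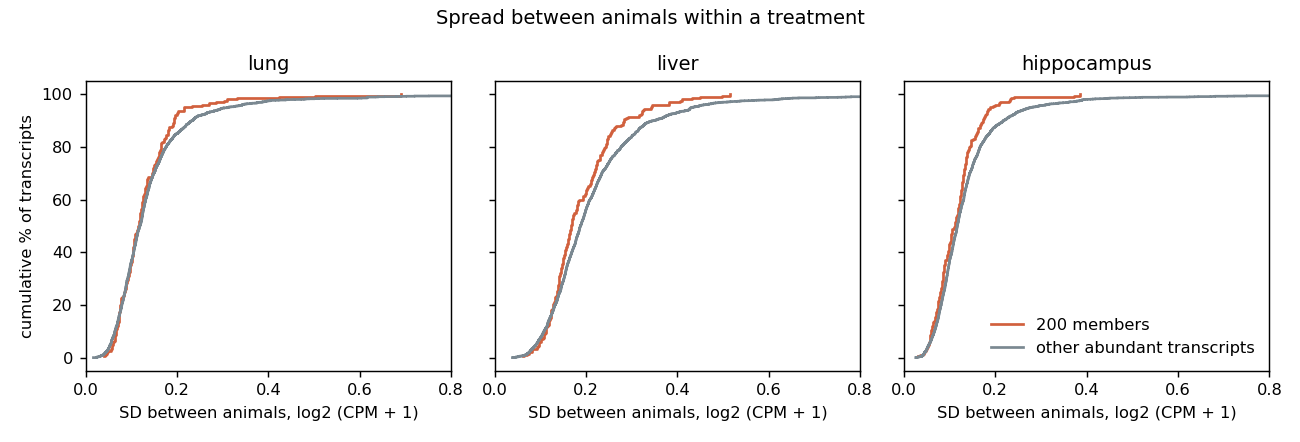
Cumulative share of transcripts (%) by the SD between animals of log2(CPM + 1) within a treatment, for the 200 members and the other 2311 abundant transcripts, in lung, liver and hippocampus (axis ends at 0.8). The curves lie close at low SD and part at higher SD, where the members reach 95% at 0.217 in lung, 0.341 in liver and 0.188 in hippocampus.

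The steadiest member was ENSMMUT00000044673.2. It measured 121 to 131 CPM with a median of 128 in lung, 110.0 to 126 CPM with a median of 119 in liver and 110.4 to 119.7 CPM with a median of 116 in hippocampus, with SDs of 0.0397, 0.0622 and 0.0462 on the log2 scale. It was followed by ENSMMUT00000056458.1 (average SD over the tissues 0.0639) and ENSMMUT00000017195.3 (average SD 0.0672). ENSMMUT00000017195.3 was also even between tissues, with means of 42.6 ± 2.33, 40.8 ± 1.90 and 43.98 ± 1.71 CPM (SD, n = 8). In all, 23 members had an average SD below 0.1.

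The most variable member, ENSMMUT00000032547.3, measured 36.3, 95.6, 55.02 and 85.1 CPM in the lungs of clinical fetuses 1 to 4. In oral fetuses 1 to 4 it measured 99.05, 114, 66.9 and 35.1 CPM. Low values thus occurred in both treatments, in clinical fetus 1 and oral fetus 4. Its SD was 0.690 in lung, 0.224 in liver and 0.385 in hippocampus. ENSMMUT00000024681.3 (average SD 0.336) ranged from 61.9 to 127 CPM in lung and from 51.3 to 104 CPM in hippocampus, and ENSMMUT00000025013.3 (average SD 0.290) from 37.4 to 76.8 CPM in liver.

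Deviations of an animal were compared between its tissues. Across the 200 members, the deviations of a fetus from its treatment mean had an average correlation of 0.119 between its lung and liver, 0.118 between lung and hippocampus and 0.0322 between liver and hippocampus. Across the other 2311 abundant transcripts the averages were 0.584, 0.653 and 0.509. These correlations are across transcripts of the same pair of libraries, which are not independent replicates, and are given as a description. The other transcripts include the 12 with a library below 0.1 of its tissue mean, and the part of such large deviations in their correlations was not tested. Between libraries of different animals of the same treatment the averages were -0.04, -0.04 and -0.01 for the members and -0.19, -0.21 and -0.16 for the other transcripts. Deviations from a treatment mean cancel out within the treatment. An average of opposite sign to that within a fetus therefore follows from the calculation, and it is not a baseline. Taken transcript by transcript over the 8 animals, the gap was smaller, with a median correlation of 0.18, 0.04 and -0.0041 for the members and 0.26, 0.08 and 0.08 for the other transcripts, in the same order of tissue pairs. The member most alike across tissues was ENSMMUT00000071237.1, where the correlation over the 8 animals was 0.760 for lung and liver, 0.676 for lung and hippocampus and 0.839 for liver and hippocampus. It was singled out after its values were seen.

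The treatment comparison asked whether oral Beta-P and the clinical treatment left these transcripts at different levels in each tissue. All 200 members passed the filter on low counts in every tissue. Differential expression was called at a fold change of at least 1.5, p below 0.05 and an adjusted p below 0.1, with edgeR's quasi-likelihood test fitted to all transcripts of a tissue. No member was called in lung (0.00369% of the 27108 transcripts tested were called), in liver (0% of 25064) or in hippocampus (0% of 29041). DESeq2 at the same limits also called no member in lung (1.21% of all tested), liver (1.09%) or hippocampus (0.191%). Since few transcripts of any kind were called by edgeR, the count of 0 does not set the members apart.

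An unadjusted p below 0.05 in edgeR was reached by 13 members in lung (6.5%, against 9.15% of all transcripts tested), 14 in liver (7.0%, against 7.08%) and 4 in hippocampus (2.0%, against 3.11%). In lung 9 were higher with oral Beta-P (4.19% of all tested were) and 4 lower (4.95%), in liver 9 were higher (3.5%) and 5 lower (3.58%), and in hippocampus 2 were higher (1.69%) and 2 lower (1.41%). Among transcripts at 30 CPM or more, which are nearer to the members in level, 12.2% reached it in lung, 9.06% in liver and 2.44% in hippocampus. The counts depended on the model, and so did those over all transcripts, which were 2480 in lung, 1775 in liver and 902 in hippocampus in the main fit. With gestational age as a covariate 6 members passed in lung (1435 of 27108 over all) and 5 in liver (1327 of 25064). With sequencing run as a covariate 17 passed in hippocampus (2110 of 29041). With DESeq2 24 passed in liver (2430 over all) and 9 in hippocampus (1293 over all). In lung 27 members passed without clinical fetus 1 (2753 of 27766 over all). The 31 members were different in each tissue, and none reached p below 0.05 in 2 tissues. The share of all transcripts that did was not computed, so the lack of overlap is not read as a difference between tissues. Libraries of the 2 treatments did not overlap for 10 members in lung (6.2% of all tested), 8 in liver (4.36%) and 4 in hippocampus (2.36%).

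The intervals of most members were narrow, which put a limit on the size of the difference between the treatment groups. The fit had no term for gestational age or sequencing run, so the limit is not one on the treatment alone. The 95% interval of the difference lay wholly within 1.5-fold in both directions for 192 members in lung (44.7% of all tested), 162 in liver (33% of all tested) and 198 in hippocampus (52.2% of all tested). Among transcripts at 30 CPM or more the shares were 84.3%, 67.1% and 94.1%. For 158 members the interval lay within 1.5-fold in all 3 tissues, and for each of the 200 in at least 1 tissue. The median size of the log2 fold change was 0.0726 in lung, 0.108 in liver and 0.0530 in hippocampus, against 0.0990, 0.128 and 0.0580 for transcripts at 30 CPM or more. A fold of at least 1.5 was reached by 0 members in lung (12.7% of all tested), 2 in liver (15.3%) and 0 in hippocampus (8.79%). In summed share of the 200 transcripts the libraries of the treatments overlapped in each tissue. In lung it was 1.92% ± 0.0162 with the clinical treatment and 1.95% ± 0.0183 with oral Beta-P (SD, n = 4 each, two-sided exact permutation p = 0.114). In liver it was 1.76% ± 0.0528 and 1.82% ± 0.0676 (exact permutation p = 0.371), and in hippocampus 1.90% ± 0.0258 and 1.87% ± 0.0270 (exact permutation p = 0.257).

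**Figure D5:**
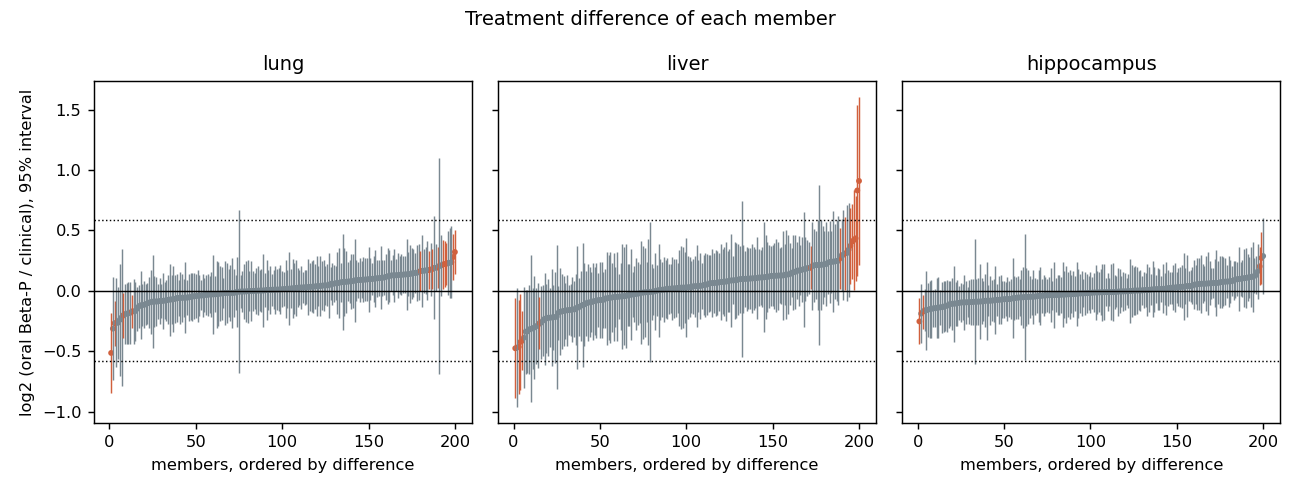
Log2 fold change (oral Beta-P over clinical) of each of the 200 members with its 95% interval from the edgeR fit, ordered by size within lung, liver and hippocampus; dotted lines mark 1.5-fold and orange marks an unadjusted p below 0.05. Intervals are widest in liver, where 162 lie within the dotted lines against 192 in lung and 198 in hippocampus.

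In lung the smallest p among members was that of ENSMMUT00000000239.3. In CPM normalized by TMM within the tissue it measured 92.01, 83.6, 75.04 and 81.2 in the clinical animals and 112, 105, 101 and 97.01 in the oral animals. Every oral library was above every clinical library (log2 fold change 0.32, SE 0.0792, edgeR Benjamini-Hochberg adjusted p = 0.362). ENSMMUT00000009226.3 was ordered the same way, with 40.9, 40.7, 35.3 and 33.4 in the clinical and 45.6, 47.4, 44.001 and 45.4 in the oral animals (log2 fold change 0.28, SE 0.0839, edgeR Benjamini-Hochberg adjusted p = 0.399). Among lower members, ENSMMUT00000059494.1 measured 76.7, 55.5, 58.3 and 47.6 in the clinical and 36.1, 41.1, 45.7 and 43.9 in the oral animals (log2 fold change -0.51, SE 0.147, edgeR Benjamini-Hochberg adjusted p = 0.389). Clinical fetus 1 stood highest, and without it the log2 fold change was -0.36. ENSMMUT00000062944.1 measured 109, 104, 101 and 85.3 and 84.4, 84.9, 82.98 and 79.5 (log2 fold change -0.27, SE 0.0823, edgeR Benjamini-Hochberg adjusted p = 0.408), and its groups did not overlap but came within 1 CPM of each other.

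In liver ENSMMUT00000021214.3 had the smallest p. It measured 90.4, 78.3, 74.4 and 75.4 in TMM-normalized CPM in the clinical animals and 60.7, 67.2, 54.3 and 56.9 in the oral animals, with no overlap (log2 fold change -0.41, SE 0.107, edgeR Benjamini-Hochberg adjusted p = 0.581). ENSMMUT00000001454.3 was also lower without overlap, at 69.5, 67.9, 73.5 and 61.5 against 53.04, 54.2, 58.3 and 60.8 (log2 fold change -0.27, SE 0.0937, edgeR Benjamini-Hochberg adjusted p = 0.634). ENSMMUT00000043612.2 was higher, at 120.2, 115, 89.5 and 128 in the clinical and 162, 165, 133 and 140.0 in the oral animals (log2 fold change 0.41, SE 0.136, edgeR Benjamini-Hochberg adjusted p = 0.632). Its lowest oral library stood only slightly above its highest clinical library.

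The 2 members with a fold of at least 1.5 in liver had one shape. ENSMMUT00000002875.3 measured 53.5, 58.5, 41.2 and 63.6 TMM-normalized CPM in the clinical and 152, 61.8, 128 and 66.1 in the oral animals (log2 fold change 0.91, SE 0.306, edgeR Benjamini-Hochberg adjusted p = 0.632). Oral fetuses 1 and 3 were high, and oral fetuses 2 and 4 lay close to the highest clinical library. ENSMMUT00000033510.3, named for its fold after values were seen, measured 42.5, 52.5, 51.7 and 48.5 CPM in the clinical and 135, 59.9, 111 and 46.7 CPM in the oral animals (log2 fold change 0.83, SE 0.31, edgeR Benjamini-Hochberg adjusted p = 0.658), again with oral fetuses 1 and 3 high. In lung and hippocampus of the same animals neither transcript stood out, with log2 fold changes between -0.04 and -0.01. The liver of oral fetus 3 was sequenced in another run than the other liver libraries, but that of oral fetus 1 was not.

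In hippocampus ENSMMUT00000073192.1 had the smallest p, with 67.4, 68.9, 70.4 and 76.4 TMM-normalized CPM in the clinical and 67.4, 60.8, 55.1 and 54.2 in the oral animals (log2 fold change -0.25, SE 0.0833, edgeR Benjamini-Hochberg adjusted p = 0.9999). Oral fetus 1 lay just below the lowest clinical library. ENSMMUT00000021720.3 was lower without overlap, at 57.8, 59.1, 59.7 and 65.6 against 53.7, 52.4, 52.1 and 56.5 (log2 fold change -0.17, SE 0.0622, edgeR Benjamini-Hochberg adjusted p = 0.9999). ENSMMUT00000076161.1 was higher without overlap, at 50.4, 54.9, 50.3 and 59.7 in the clinical and 63.3, 60.3, 62.9 and 61.2 in the oral animals (log2 fold change 0.20, SE 0.0695, edgeR Benjamini-Hochberg adjusted p = 0.9999). ENSMMUT00000007881.3 was higher with overlap, at 62.4, 48.6, 50.4 and 54.4 and 69.4, 61.98, 68.9 and 60.1 (log2 fold change 0.27, SE 0.093, edgeR Benjamini-Hochberg adjusted p = 0.9999). With sequencing run as a covariate the log2 fold change of ENSMMUT00000076161.1 was 0.05, and the clinical library that shared the run of the oral libraries was its highest, at 59.7. With that covariate ENSMMUT00000021720.3 was at -0.29. With gestational age as a covariate ENSMMUT00000073192.1 was at -0.14 and ENSMMUT00000021720.3 at -0.11. None of the 12 members singled out by p had an adjusted p below 0.1 in edgeR, and 3 of them had in DESeq2, ENSMMUT00000000239.3 and ENSMMUT00000059494.1 in lung and ENSMMUT00000021214.3 in liver, each at less than 1.5-fold.

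Whether the treatment difference was unequal between tissues was tested over all 24 libraries. The fit had no term for the animal, so libraries of the same fetus were taken as separate. No member had an interaction at an adjusted p below 0.1 (0.109% of 32920 transcripts had), and 20 members (10%) reached an unadjusted p below 0.05 against 7.66% of all. The smallest interaction p among members was that of ENSMMUT00000059494.1 (edgeR F test, Benjamini-Hochberg adjusted p = 0.312), whose log2 fold change was -0.51 in lung, 0.31 in liver and 0.11 in hippocampus. ENSMMUT00000002875.3 followed (edgeR F test, Benjamini-Hochberg adjusted p = 0.335).

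Sequencing run and gestational age were partly tied to treatment. In lung, clinical fetuses 1 and 2 were sequenced apart from the other 6 libraries, in liver oral fetus 3 apart from the other 7, and in hippocampus clinical fetuses 1, 2 and 3 apart from the other 5. Within the clinical lungs the difference between runs had a median size of 0.0929 on the log2 scale over the members, and no member differed by 1.5-fold. In the oral livers fetus 3 differed from the others by 1.5-fold or more for 9 members. Within the larger run 15 members reached an unadjusted p below 0.05 in lung (2098 of 28651 over all) and 10 in liver (1570 of 25730), and none was called. In lung the log2 fold change of ENSMMUT00000062944.1 was -0.16 in place of -0.27, and that of ENSMMUT00000059494.1 -0.34 in place of -0.51. In hippocampus no run held more than 1 clinical library beside oral ones. The oral fetuses were 129.75 days old on average and the clinical fetuses 132.75 days. The part of age and run in the treatment differences was not tested beyond the covariate fits.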

How the data were processed

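RNA of lung, liver and hippocampus of 8 fetuses was sequenced as paired-end reads of polyA-selected RNA, 24 libraries, and grouped by the sample labels. The authors deposited whole counts per Ensembl transcript for lung and hippocampus and estimated counts for the liver, of which 55.4% were not whole. None was normalized. The authors aligned reads with STAR to macaque build MMUL1.0. The submitters' processing notes also name featureCounts and DESeq2, without versions. The annotation release and the treatment of reads shared by transcripts are not given in the sources used here. Such reads can raise or lower single transcripts of a gene.

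CPM, tissue means and ratios were computed in Python 3.11.15. Transcript ENSMMUT00000054851.1 was left out by the rule of choice. Liver values were rounded to whole numbers for the tests. edgeR 4.0.16 (limma 3.58.1, R 4.3.3) was fitted to each tissue separately with filterByExpr, TMM factors within the tissue and Benjamini-Hochberg adjustment over all transcripts tested. Standard errors came from the F statistic, and 95% intervals from the t quantile at the fit's degrees of freedom. DESeq2 1.42.0, RLE factors, plain CPM, other filters, a robust fit, age and run as covariates and leaving out each library were alternatives. The members, lists and tests were chosen with earlier results of these data known. The scripts were tested on simulated data. Gene and marker lists were not used because no identifier could be paired with a name.

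Transcripts named were the 8 with the highest smallest tissue mean, those at the limits, in each tissue the 2 with the smallest p in each direction, the 3 with the smallest and the 3 with the largest SD between animals, and the 3 most even. Libraries with the same animal number came from the same fetus, which pairs tissues but not treatments, since each fetus had 1 treatment. Within a tissue each library is 1 fetus, so p-values of tests within a tissue set the treatment difference against the spread between fetuses. The main interaction test took libraries of the same fetus as separate, so its p-values do not. SDs expected from counting cover counting error only.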

Additional observations from a re-analysis of the deposited data

Results flagged for a closer look

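Among 204 groups of 4 libraries examined (the 33 named members and the summed share in each tissue and treatment), 9 held a library far from the other 3 by Dixon's criterion. Chance flags about 1 in 20 groups, or 10.2 of 204, so the number was no larger than chance gives.

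The summed share of the members was low in clinical fetus 4 in both clinical lung (1.898%, others 1.929% to 1.932%) and clinical liver (1.686%, others 1.783% to 1.803%). In that liver library 31.3% of the counts came from its 10 most abundant transcripts, the highest share of the 24 libraries. Their part in the low share was not tested.

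In the liver, clinical fetus 4 was high for ENSMMUT00000028516.3 (59.344 CPM, others 45.4 to 47.8), clinical fetus 3 was low for ENSMMUT00000007881.3 (33.501 CPM, others 41.6 to 43.1), and oral fetus 1 was low for ENSMMUT00000004353.3 (198.095 CPM, others 219 to 221). In the oral lungs fetus 3 was low for ENSMMUT00000017996.3 (34.334 CPM, others 41.5 to 42.8). In the oral hippocampus fetus 3 was low for ENSMMUT00000025180.3 (110.229 CPM, others 127 to 129), fetus 1 was high for ENSMMUT00000001454.3 (74.613 CPM, others 62.6 to 63.6), and fetus 1 was low for ENSMMUT00000024681.3 (51.346 CPM, others 93.4 to 100.1).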

How the results depend on the processing

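No alternative of the edgeR fit called a member in any tissue, including the fits within the larger sequencing run of lung and liver, chosen after seeing the data. With DESeq2 and no fold change limit, chosen after seeing the data, 3 members had an adjusted p below 0.1 in the lung (ENSMMUT00000000239.3, ENSMMUT00000059494.1 and ENSMMUT00000039940.2) and 2 in the liver (ENSMMUT00000021214.3 and ENSMMUT00000039975.2), none of them past 1.5-fold. Counts at an unadjusted p below 0.05 moved more. Those over all transcripts tested moved too, but not always in the same direction or to a like degree. In the lung without clinical fetus 1, for example, 2480 became 2753 over all transcripts. Whether the shifts below are particular to the members was not tested. In the lung, 13 became 6 with gestational age as a covariate and 9 to 27 when each library was left out (27 without clinical fetus 1). In the liver, 14 became 24 with DESeq2, 5 with gestational age and 6 to 19 when each library was left out (6 without clinical fetus 3, 9 without clinical fetus 4 and 9 without oral fetus 1). In the hippocampus, 4 became 9 with DESeq2, 17 with sequencing run as a covariate and 4 to 8 when each library was left out (8 without clinical fetus 2, and 7 without oral fetus 1 or without oral fetus 3). For the interaction, 20 became 10 to 22 when each animal was left out (10 without clinical fetus 3 and 10 without oral fetus 1). With the animal as a replicate block, 0 members were called and 21 reached p below 0.05 (2221 of 32920 over all transcripts). Over all transcripts 12 were called with the block and 36 without it. The smallest edgeR F test adjusted p among members was 0.433 with the block and 0.312 without it. The cause was not tested where fewer libraries or an added term does not show it. The 12 members named for their p were chosen from these same libraries, so a kept direction is no separate support. All their log2 fold changes kept their direction, although that of ENSMMUT00000076161.1 in the hippocampus fell from 0.20 to 0.05 with sequencing run as a covariate. That of ENSMMUT00000000239.3 ran from 0.28 to 0.41, and that of ENSMMUT00000059494.1 from -0.73 to -0.34, and their adjusted p from 0.0188 and 0.0774 (DESeq2) to 0.931.

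Membership rested on the scale. Of the 200 chosen, 9 were shared with TMM factors, 2 with RLE size factors and 87 when the 10 most abundant transcripts were left out of each total, an alternative chosen after seeing the data. The transcripts within both limits numbered 934, 943 and 612 on these scales, against 286 by CPM. A ratio limit of 5/4 kept 67 members, a limit of 2 shared 73, and a minimum of 100 CPM kept 33. Medians in place of means shared 183, the clinical animals alone 169, the oral animals alone 174, and leaving out each animal 187 to 192.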
